A study of Mus musculus with 39 samples.

Results

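The ADAM genes (a disintegrin and metalloproteinase) are the subject of this account: every gene whose symbol is Adam followed by a number and at most 1 letter, which leaves out the ADAMTS genes. The rule found 33 genes, all 33 of them among the 21561 Ensembl genes that stand in both deposited count tables. They were measured by RNA-seq in 39 libraries from male C57BL/6J mice, in 13 groups of 3 biological replicates. WT mice were compared with INSL3-KI mice, which are homozygous for a minke whale INSL3 coding sequence placed at the mouse Insl3 locus under the mouse promoter, and with INSL3-KO mice, which lack INSL3, the Leydig cell hormone that drives the first phase of testis descent. The gubernaculum, the ligament that guides the testis, was sampled in all 3 genotypes at postnatal day 8 (P8), and at P23 without an INSL3-KO group. Testis was sampled in the 3 genotypes at both of these ages, and at P40 without an INSL3-KO group.

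ADAM proteins are membrane proteins with a prodomain, a metalloproteinase domain, a disintegrin domain and a short cytoplasmic tail. Some members keep an active zinc site and act as sheddases, which cut growth factors, cytokines, Notch and adhesion proteins from the cell surface. A large group is expressed in male germ cells, where ADAM1, ADAM2 and ADAM3 assemble on the sperm head and are needed for sperm to pass the uterotubal junction and to bind the zona pellucida. The members were therefore ordered by role, as 10 fertilin and sperm-surface genes (Adam1a, Adam1b, Adam2, Adam3, Adam4, Adam5, Adam6a, Adam6b, Adam18 and Adam32), 10 testicular single-exon genes (Adam20, Adam21, Adam24, Adam25, Adam26a, Adam26b, Adam29, Adam30, Adam34 and Adam39), 2 epididymal genes (Adam7 and Adam28), 8 widely expressed proteases (Adam8, Adam9, Adam10, Adam12, Adam15, Adam17, Adam19 and Adam33) and 3 non-proteolytic neural genes (Adam11, Adam22 and Adam23).

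Libraries held 29861447 to 45260372 counts. The WT and INSL3-KI libraries stand in the first table, except WT testis at P23, which stands in the second with the INSL3-KO libraries, so that in comparisons across tables the table and the genotype cannot be told apart. 3 sets of libraries stood apart from what their labels say or from the rest of their group. Mouse Insl3 had 906, 804 and 613 counts in the libraries labelled INSL3-KO P8 testis, against 2922, 3524 and 2722 in WT P8 testis, while INSL3-KO P23 testis held 0, 5 and 0. The libraries labelled WT P23 testis held more transcript of 6 elongating spermatid markers (15490.2 to 17662 CPM summed, CPM being counts scaled by sequencing depth, here with TMM over the libraries of a tissue) than WT P40 testis (9265 to 11601 CPM), so the counts of members called against them are also given with WT P40 in their place. INSL3-KI P8 testis replicate 2 held 1634 CPM of 6 pachytene spermatocyte markers, where the lowest library of its group held 93.6. A gene was called changed if edgeR's quasi-likelihood test gave it an adjusted p below 0.01 and its fold change reached 2. In bulk tissue, fewer cells of a type and less RNA per cell cannot be told apart, and p-values measure the spread between the libraries of a group.

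Of the 20 testicular members, 11 lie in 3 rows of neighbours on chromosome 8 (GRCm38), while Adam2, Adam29 and Adam30 lie apart from the other testicular members. Adam18, Adam3, Adam5 and Adam32 follow each other on the minus strand of chromosome 8, with the widely expressed Adam9 at the end of the row, between 24602246 and 25016927. Adam24, Adam25, Adam20 and Adam39 lie together at 40675077 to 40827037 of the same chromosome, and Adam26b, Adam26a and Adam34 at 43519762 to 43710049. Of the 20 testicular members, 15 had a single coding exon, and Adam2, Adam3, Adam5, Adam18 and Adam32 had 19 to 22. Adam1a and Adam1b, Adam6a and Adam6b, Adam26a and Adam26b, and Adam20, Adam24, Adam25 and Adam39 are paralogs, whose transcripts were not compared here, and reads may have been split between them, so their single values are uncertain, as are those of Adam1a, Adam4 and Adam34, which overlap other genes on their strand.

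Promoters in RefSeq (GRCm38.p6, 250 bases before and 50 after the transcription start) were matched for 17 of the 33 members, in 19 windows. The 10 testicular members matched had a median GC content of 39.5% (35.3% to 51.0%) and a median of 1 CpG pair per window (0 to 4), against 65.3% and 19 in the 9 windows of the 7 other members, and 52.7% and 7 over all 32851 promoters. A GC box (GGGCGG, searched on both strands) stood in 35.7% of all promoters and, among members, in those of Adam8, Adam10, Adam15, Adam17 and Adam19. The TATA box letters TATAAA, likewise searched on both strands, were found in 13.6% of all promoters and in those of Adam6a, Adam6b and Adam29. In Adam6a and Adam6b they stood only on the strand opposite to the gene, as TTTATA in the sequences printed below. The site AACNGTT was found in 4.45% of all promoters and in that of Adam29, and TGACGTCA in 1.79% of all promoters and in no member window. The following pair of sequences, Adam6a at chr12:113543658-113543957 and Adam6b at chr12:113489315-113489614, both on the plus strand, is shown because it carries the duplication of this sperm-surface gene, with the longest run the promoters share, 199 bases, in capitals. This run covers positions 102 to 300 of the Adam6a window and 1 to 199 of the Adam6b window. It is cut by the window edges, so its length is a lower limit.
Adam6a: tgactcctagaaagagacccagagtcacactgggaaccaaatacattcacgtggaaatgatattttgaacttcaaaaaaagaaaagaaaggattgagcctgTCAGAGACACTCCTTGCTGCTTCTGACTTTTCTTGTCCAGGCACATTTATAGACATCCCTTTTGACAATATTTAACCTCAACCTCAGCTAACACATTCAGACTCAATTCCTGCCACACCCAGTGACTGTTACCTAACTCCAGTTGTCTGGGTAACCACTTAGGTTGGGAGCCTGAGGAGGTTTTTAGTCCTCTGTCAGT
Adam6b: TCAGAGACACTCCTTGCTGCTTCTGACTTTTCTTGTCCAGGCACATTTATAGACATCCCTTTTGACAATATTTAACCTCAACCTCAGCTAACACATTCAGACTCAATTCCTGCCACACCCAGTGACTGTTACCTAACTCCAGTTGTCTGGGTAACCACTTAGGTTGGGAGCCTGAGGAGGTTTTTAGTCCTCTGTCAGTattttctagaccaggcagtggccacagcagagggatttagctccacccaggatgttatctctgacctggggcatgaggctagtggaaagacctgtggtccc

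Adam20 (chr8:40793023-40793322) and Adam25 (chr8:40751958-40752257), both on the plus strand, show the same for the single-exon cluster, with their longest shared run of 88 bases in capitals.
Adam20: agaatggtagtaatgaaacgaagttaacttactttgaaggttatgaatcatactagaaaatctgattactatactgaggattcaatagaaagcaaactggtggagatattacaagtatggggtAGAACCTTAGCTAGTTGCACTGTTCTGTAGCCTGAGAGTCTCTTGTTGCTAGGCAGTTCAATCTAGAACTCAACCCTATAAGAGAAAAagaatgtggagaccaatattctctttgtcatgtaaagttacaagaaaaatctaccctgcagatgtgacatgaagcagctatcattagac
Adam25: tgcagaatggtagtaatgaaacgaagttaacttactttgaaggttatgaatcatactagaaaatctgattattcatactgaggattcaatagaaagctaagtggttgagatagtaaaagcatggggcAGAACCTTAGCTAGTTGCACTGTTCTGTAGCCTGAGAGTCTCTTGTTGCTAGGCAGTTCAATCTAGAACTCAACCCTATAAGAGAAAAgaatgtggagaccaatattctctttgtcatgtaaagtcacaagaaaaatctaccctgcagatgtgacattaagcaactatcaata

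The promoters of the sheddases Adam10 (chr9:70678732-70679031, plus strand) and Adam17 (chr12:21373583-21373882, minus strand) are printed for contrast, with GC boxes on either strand in capitals, 3 in Adam10 and 1 in Adam17.
Adam10: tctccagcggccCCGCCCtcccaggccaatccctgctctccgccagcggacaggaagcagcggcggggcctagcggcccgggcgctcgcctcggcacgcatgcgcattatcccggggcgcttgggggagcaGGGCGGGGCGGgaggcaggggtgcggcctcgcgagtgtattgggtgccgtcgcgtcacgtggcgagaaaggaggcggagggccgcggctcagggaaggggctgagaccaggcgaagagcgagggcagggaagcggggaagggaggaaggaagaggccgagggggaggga
Adam17: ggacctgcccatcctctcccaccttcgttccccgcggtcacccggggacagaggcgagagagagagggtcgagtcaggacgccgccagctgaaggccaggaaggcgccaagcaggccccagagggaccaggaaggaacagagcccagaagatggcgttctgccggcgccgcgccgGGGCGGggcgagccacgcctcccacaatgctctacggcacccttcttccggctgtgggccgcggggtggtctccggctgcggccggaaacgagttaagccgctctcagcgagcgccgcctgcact

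In WT testis the testicular members, most of them near absent at P8, were higher at P40, and most of the widely expressed proteases were lower. Adam8 and Adam11 also rose, and the neural members Adam22 and Adam23 were not called. Between these ages 22 of the 31 members tested were called higher and 7 lower, where 31.9% of all genes tested were called higher and 27.8% lower. The median log2 fold change of the members was 9.80, or 9.25 with the 12 members that had no count at P8 set at their lower bound, and that of all genes was -0.03. The 10 fertilin and sperm-surface genes and the 10 single-exon genes all rose. Adam2, the fertilin beta subunit, had no count in any of the 3 WT P8 libraries and 701, 720.5 and 621 CPM at P40. Adam3, which sperm need to migrate into the oviduct, had 0.125, 0.113 and 0.233 CPM at P8 and 1790.1, 1806 and 1535 CPM at P40, a log2 fold change of 13.33 (SE 0.21, adjusted p = 1.42e-08). The ages did not overlap for either gene.

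Counted against a floor of 3 counts over the 3 WT P8 libraries, which covers counting error only, Adam18 was at least 8575-fold higher at P40, Adam24 at least 5672-fold, Adam6a at least 4097-fold, Adam20 at least 3555-fold, Adam6b at least 3197-fold and Adam26a at least 2525-fold. Bounds for Adam39, Adam25, Adam29, Adam34 and Adam26b were 2363-, 2044-, 1813-, 1051- and 609.8-fold. The remaining testicular members had some counts at P8, and their log2 fold changes were 12.55 for Adam32, 9.87 for Adam5, 9.80 for Adam1b, 9.19 for Adam30, 8.43 for Adam21, 8.09 for Adam4 and 4.80 for Adam1a. Adam1a, the fertilin alpha gene least changed, already ranged from 1.30 to 21.5 CPM at P8. On the length-scaled FPKM scale the highest level in WT P40 testis was that of Adam5, a member without catalytic activity (431 ± 4.64 FPKM, SD, n = 3), whose libraries overlapped those of Adam3 (422 ± 18.8 FPKM). Adam32 (256 ± 2.98 FPKM) and Adam2 (174 ± 6.22 FPKM) followed without overlap, and Adam1b (64.2 ± 4.91 FPKM) came next. Mean FPKM reached 1 for 26 members in WT P40 testis and for 9 in WT P8 testis.

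**Figure D1:**
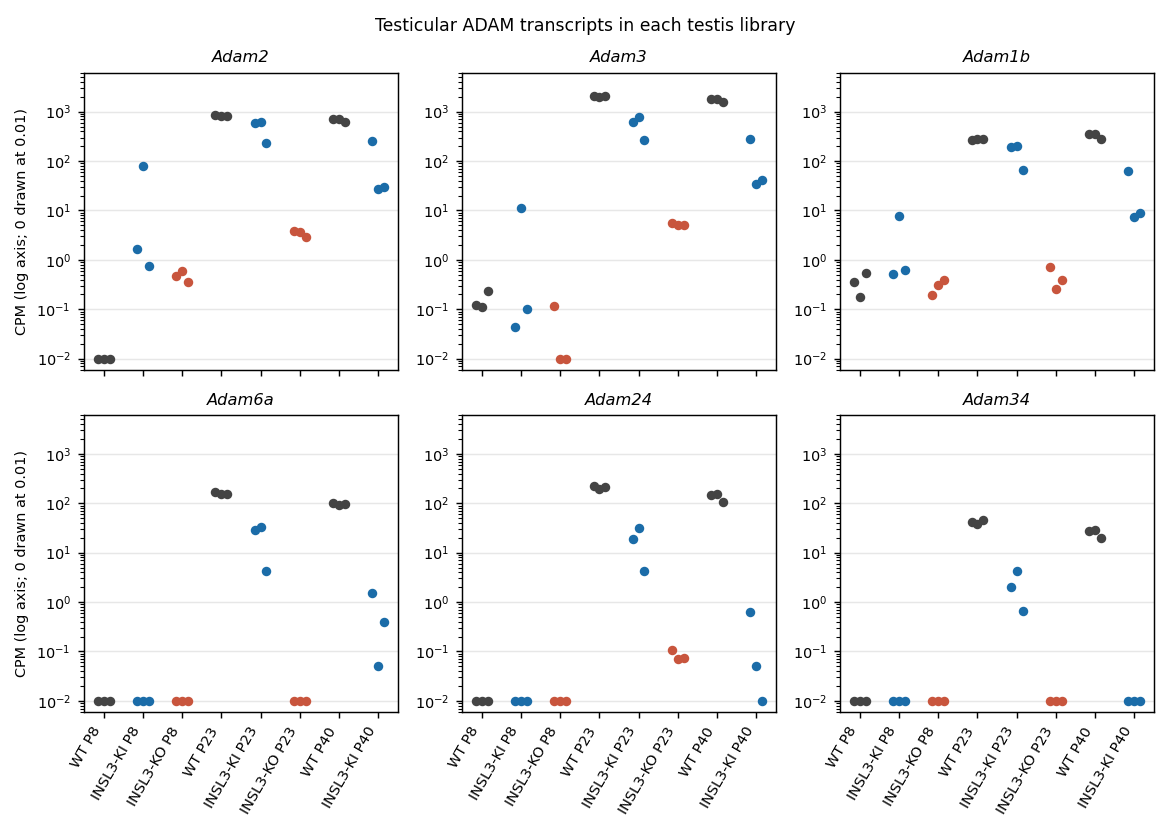
CPM (log axis, 0 drawn at 0.01) of 6 testicular members in each testis library, with groups on the x axis and 1 point per library. Adam2 stood at 621 CPM or more in WT P40 testis and between 26.8 and 256 CPM in INSL3-KI P40 testis, while Adam34 had no count in any INSL3-KI P40 library.

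At P40, the oldest age sampled, INSL3-KI testes held on average less transcript of every testicular member, and for the single-exon genes little remained. Of 31 members tested, 16 fell and 6 rose, against 22.1% and 25.6% of all genes, and the median log2 fold change was -3.56 for members and 0.09 for all genes. Among the roles, 9 of 10 single-exon genes and 5 of 10 sperm-surface genes fell, 5 of 8 widely expressed proteases rose, and of the 3 neural members 2 fell and 1 rose. Both groups stand in the first table. The 6 elongating spermatid markers summed to 4.19 to 37.2 CPM in these INSL3-KI libraries, against 9265 to 11601 CPM in WT, and their part in the result was not tested.

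Adam34, a testicular gene of the single-exon group, had 27.2, 28.7 and 19.7 CPM in WT P40 testis and no count in the 3 INSL3-KI libraries, which put it at least 984-fold lower. Adam24, the testase that is processed on epididymal sperm, had 149, 152 and 106 CPM in WT and 0.629, 0.0501 and 0 CPM in INSL3-KI, for a log2 fold change of -9.21 (SE 1.05, adjusted p = 0.000578). Adam20 had 93.6, 96.3 and 65.9 CPM in WT and 0.472, 0.0752 and 0 CPM in INSL3-KI. For Adam24 and Adam20 replicate 1 was the highest INSL3-KI library, and for all 3 genes the genotypes did not overlap. The further single-exon genes fell by similar amounts, with log2 fold changes of -9.20 (adjusted p = 0.000309) for Adam29, -8.65 (adjusted p = 0.00061) for Adam26a, -7.83 (adjusted p = 0.000388) for Adam21, -7.73 (adjusted p = 0.000249) for Adam39, -7.58 (adjusted p = 0.000128) for Adam25 and -6.86 (adjusted p = 0.00113) for Adam26b. Adam30 differed from its group, at 144, 140.1 and 122 CPM in WT and 29.2, 2.46 and 2.61 CPM in INSL3-KI, and did not pass the test (log2 fold change -3.56 (adjusted p = 0.0193)).

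Among the sperm-surface genes, Adam6b, Adam4 and Adam6a fell furthest. Adam6b, which with Adam6a is needed for the sperm-surface ADAM complexes, had 74.1, 76.9 and 75.2 CPM in WT and 1.1, 0.1 and 0 CPM in INSL3-KI (log2 fold change -7.54 (adjusted p = 0.00125)). Adam4 fell by a log2 fold change of -7.23 (adjusted p = 0.000186) and Adam6a of -7.17 (adjusted p = 0.000852). Adam1a, the fertilin alpha subunit, fell from 322, 342 and 257 CPM to 27.8, 4.81 and 5.18 CPM, a log2 fold change of -4.59 (SE 0.78, adjusted p = 0.00247). Adam3 had 282, 34.6 and 41.4 CPM in INSL3-KI against 1790.1, 1806 and 1535 CPM in WT, -3.83 (adjusted p = 0.00852) on the log2 scale. Adam2 had 256, 26.8 and 30.2 CPM against 701, 720.5 and 621 CPM, and with a log2 fold change of -2.70 (adjusted p = 0.0341) it did not pass the test although the groups did not overlap. The log2 fold changes of Adam5, Adam18, Adam32 and Adam1b were between -3.65 and -3.01 and also missed the threshold. INSL3-KI replicate 1 was the highest of its group for all 10 of these genes. Without it 22 members were called lower, and the share of all genes in that fit was not counted. The call of Adam3 was lost without any 1 of 5 libraries (each WT replicate and INSL3-KI replicates 2 and 3, adjusted p = 0.0168 to 0.0275), and that of Adam1a without WT replicate 1 (adjusted p = 0.0109) or WT replicate 2 (adjusted p = 0.0105).

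Expressed as a percentage of the mean WT P40 level, what remained differed between genes and between libraries. Over the 5 genes with several coding exons the median was 28.8%, 3.42% and 3.69% in INSL3-KI replicates 1, 2 and 3, and over the 15 genes with 1 coding exon it was 0.976%, 0.0882% and 0.26%. Adam2 was retained most among the 20 (37.5, 3.94 and 4.43%), and the most retained genes with 1 coding exon were Adam30 (21.6, 1.82 and 1.93%) and Adam1b (18.9, 2.24 and 2.64%), each above Adam3 (16.5, 2.02 and 2.42%), a gene with several, in at least 1 library. In the same libraries the summed pachytene spermatocyte markers stood at 32.7%, 4.71% and 4.57% of WT, round spermatid markers at 7.17%, 1.67% and 1.60%, and elongating spermatid markers at 0.346%, 0.0389% and 0.0550%. These percentages are a description of 3 libraries, and the order of the genes within them was not tested.

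**Figure D2:**
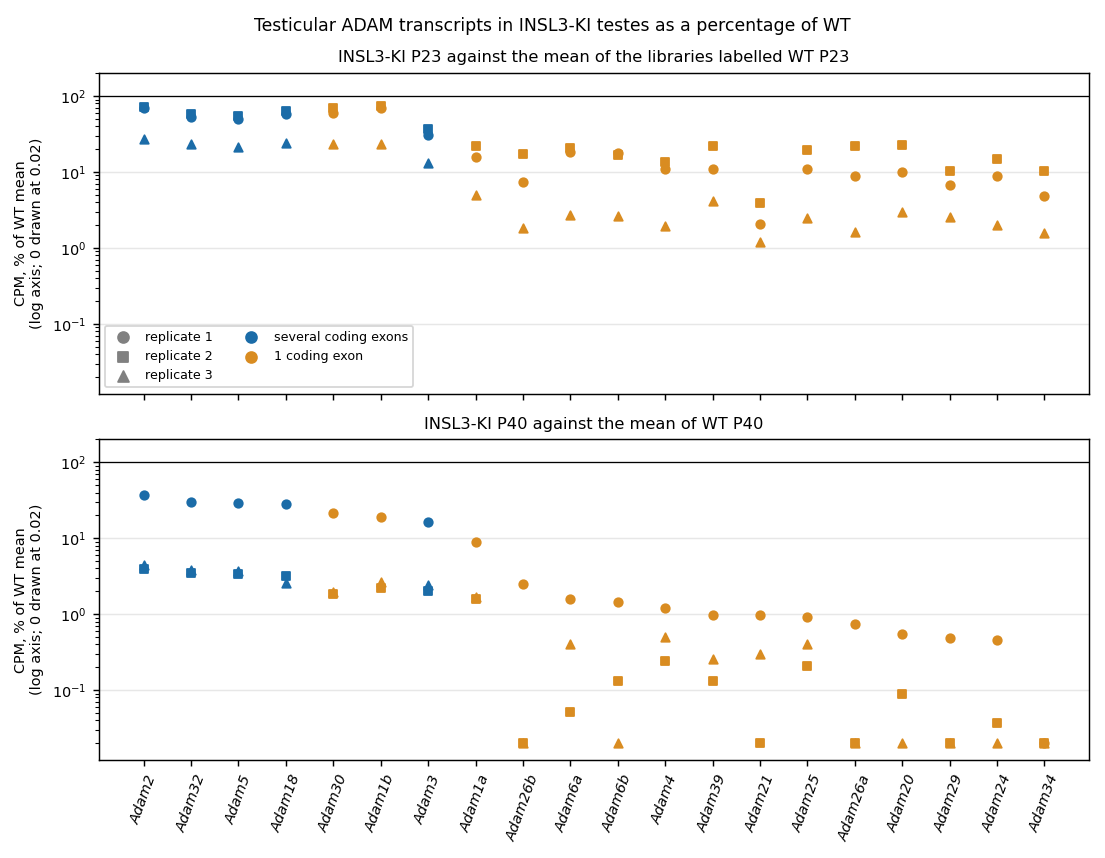
Level of each of the 20 testicular members in each INSL3-KI testis library as a percentage of the mean of the WT libraries labelled with the same age (log axis, 0 drawn at 0.02). The upper panel shows P23, which crosses the tables, and the lower panel P40. Marker shape gives the replicate and colour the number of coding exons. Genes with several coding exons lay above most single-exon genes in every library, with medians of 28.8% against 0.976% in replicate 1 at P40.

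Members also fell in INSL3-KI testis at P23. Of 31 members tested 12 fell and 3 rose, against 11.8% and 8.81% of all genes, with a median log2 fold change of -1.38 for members and 0.08 for all genes. The 4 sperm-surface genes that fell were Adam4 (-3.51 on the log2 scale), Adam6b (-3.002), Adam1a (-2.82) and Adam3 (-1.88). Adam21, a testicular gene of the single-exon group, had the largest fall of the members tested, with 68.9, 59.1 and 63 CPM in the WT libraries and 1.31, 2.49 and 0.772 CPM in INSL3-KI, for a log2 fold change of -5.38 (SE 0.42, adjusted p = 0.000482). It was called with each library left out in turn. Another 6 single-exon genes fell, with log2 fold changes of -3.02 (Adam39) to -4.17 (Adam34).

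The abundant sperm-surface genes Adam2, Adam1b, Adam5, Adam18 and Adam32 were retained more in INSL3-KI at P23 and did not pass the test, and neither did the single-exon gene Adam30. Adam20 (-3.07 (adjusted p = 0.0101)), Adam26a (-3.22 (adjusted p = 0.0162)) and Adam6a (-2.84 (adjusted p = 0.0138)) missed the threshold with larger log2 fold changes. Adam2 had 580.0, 605 and 229.6 CPM in INSL3-KI and 859.6, 814 and 829.7 CPM in WT, a log2 fold change of -0.82 (SE 0.36, adjusted p = 0.0945). Adam1b had 189, 202 and 64.6 CPM against 262, 275 and 286 CPM (-0.85 (adjusted p = 0.113)). INSL3-KI replicate 3 was the lowest of its group for both genes. Adam5, Adam18, Adam32 and Adam30 had log2 fold changes between -1.26 and -0.97.

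This comparison crosses the tables and rests on few libraries. Without INSL3-KI replicate 1, or without any 1 of the 3 WT libraries, 1 member was called lower instead of 12, and members called higher went from 3 to 1 without that INSL3-KI library and to 0 without any WT library. With the WT P40 libraries in place of those labelled WT P23, 3 members were called lower and 1 higher, where 3.25% and 0.193% of all genes were. DESeq2 called 20 members lower and 4 higher, against 18.3% and 12.6% of all genes. Elongating spermatid markers summed to 49.8 to 616 CPM in INSL3-KI P23 testis and round spermatid markers stood at 19.0%, 26.2% and 6.59% of the WT libraries labelled P23, against 64.5%, 67.2% and 29.0% for pachytene spermatocyte markers, and their part in the result was not tested.

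In INSL3-KO testis at P23 the testicular members were close to undetected. Compared with the WT P23 libraries of the same table, 22 of 31 members fell and 7 rose, against 33.4% and 31.1% of all genes, with a median log2 fold change of -7.95 for members and 0.06 for all genes. All 20 testicular genes fell, and each call held with every library left out in turn. Over the single-exon genes the median log2 fold change was -12.70, or -10.98 with the 5 that had no count in INSL3-KO set at their bound. Adam2 had 3.79, 3.75 and 2.95 CPM in INSL3-KO against 859.6, 814 and 829.7 CPM in WT (-7.85 (SE 0.08, adjusted p = 4.57e-13)). Adam3 had 5.49, 4.97 and 5.03 CPM against 2106, 1985 and 2052 CPM (-8.58 (SE 0.06, adjusted p = 1.01e-13)). The libraries of each genotype were tight around their mean, and the genotypes did not overlap for any of the 20 genes. Overlap was not counted over all genes, of which 14845 of 16732 had an unadjusted p under 0.05 in the same test.

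No count was found in INSL3-KO P23 testis for Adam6a, Adam26a, Adam39, Adam29, Adam34 and Adam26b, which were at least 6461-, 4042-, 3683-, 3245-, 1712- and 1098-fold lower than in WT. Adam20 and Adam6b had 2 counts each over the 3 libraries, which put them 8208-fold (95% counting interval 2272 to 67790.0) and 7137-fold (95% counting interval 1975 to 58940.0) lower. Log2 fold changes of the others were -11.22 for Adam24, -9.58 for Adam30, -9.50 for Adam25, -9.21 for Adam1b, -8.20 for Adam21, -8.04 for Adam5, -7.95 for Adam18, -7.92 for Adam32, -6.88 for Adam4 and -6.68 for Adam1a. With the WT P40 libraries in place of WT P23, 22 members were called lower and 6 higher, against 33.4% and 30.1% of all genes. Elongating spermatid markers summed to 3.19 to 4.37 CPM in these INSL3-KO libraries, and their part in the result was not tested.

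The mutants were also compared with each other at P23, across the tables. INSL3-KI testis held more of 20 members than INSL3-KO testis and less of 1, against 25.2% and 13% of all genes. The median log2 fold change was 6.75, or 6.54 with the 6 genes absent in INSL3-KO set at their bound, and 0.02 for all genes. Adam2 was higher in INSL3-KI by 7.08 (SE 0.47, adjusted p = 0.000156) and Adam3 by 6.75 (SE 0.46, adjusted p = 0.000156). Adam21 alone among the 20 testicular members did not pass (2.85 (adjusted p = 0.0403)). The neural member Adam11 was higher in INSL3-KI (1.51 (adjusted p = 0.00866)), and Adam23 was lower (-1.40 (adjusted p = 0.00242)). Adam11 lost this call without any 1 of 5 libraries (adjusted p = 0.0250 to 0.0380), and kept it without INSL3-KI replicate 3. Without INSL3-KI replicate 1, 13 members were called higher. Members called lower went to 0 without that library or without any 1 of the 3 INSL3-KO libraries, and to 4 without INSL3-KI replicate 3.

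**Figure D3:**
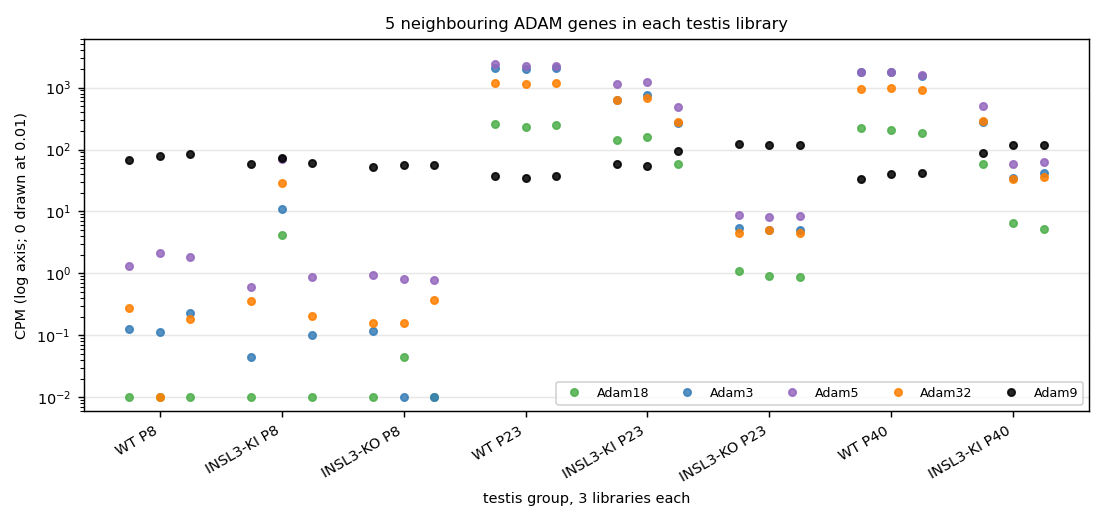
CPM (log axis, 0 drawn at 0.01) of Adam18, Adam3, Adam5, Adam32 and Adam9, which are neighbours on chromosome 8, in each testis library. The 4 sperm-surface genes lie above Adam9 in WT P23 and P40 testis and below it in INSL3-KO P23 testis, where Adam3 had at most 5.49 CPM and Adam9 at least 116 CPM.

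The row of neighbours on chromosome 8 showed both behaviours within 1 stretch of the genome. Adam9, a widely expressed sheddase, had 37, 35.1 and 37.2 CPM in WT P23 testis and 122, 116 and 120.1 CPM in INSL3-KO P23 testis, a log2 fold change of 1.77 (SE 0.06, adjusted p = 4.89e-10). Adam32, the next gene, had 1206, 1158 and 1174 CPM in WT and 4.45, 5.06 and 4.48 CPM in INSL3-KO. At P40 Adam9 had 33.6, 41 and 41.8 CPM in WT and 88, 117 and 117 CPM in INSL3-KI (1.52 (SE 0.18, adjusted p = 0.000682)). At P23 and at P40 every WT library was thus lower in Adam9, and higher in Adam18, Adam3, Adam5 and Adam32, than every mutant library of its labelled age.

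From P23 to P40 no member was called changed in INSL3-KI testis by edgeR's quasi-likelihood test, and neither was any of the 16328 genes tested (0% in each direction). At an unadjusted p under 0.05 there were 20 members and 7615 genes, and DESeq2 called 9 members lower and 1 higher, against 5.08% and 1.94% of all genes. The median log2 fold change of the members was -2.24 and that of all genes 0.05. Adam24 had 18.7, 31.3 and 4.22 CPM at P23 and 0.629, 0.0501 and 0 CPM at P40. Adam39 had 9.8, 19.9 and 3.78 CPM at P23 and 0.551, 0.0752 and 0.147 CPM at P40. The ages did not overlap for either gene, and the smallest adjusted p of any member was 0.0991. Adam2 overlapped between the ages, since INSL3-KI P40 replicate 1, at 256 CPM, was above INSL3-KI P23 replicate 3, at 230 CPM.

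The widely expressed proteases moved the other way in the testis. Adam10, the main sheddase of Notch and of cadherins, had 184, 186 and 179.8 CPM in WT P8 testis and 46.8, 49.5 and 63.4 CPM in WT P40 testis, and fell by a log2 fold change of -1.82 (SE 0.13, adjusted p = 5.9e-06). In INSL3-KI P40 testis it had 153, 232 and 229 CPM (1.996 (SE 0.24, adjusted p = 0.000716) against WT), and in INSL3-KO P23 testis 235, 233 and 240.0 CPM against 51.8, 53.5 and 52.6 CPM in WT (2.22 (SE 0.05, adjusted p = 2.14e-11)). In INSL3-KI at P23 it had 92.8, 78.9 and 167 CPM, and 1.11 (adjusted p = 0.019) was short of the threshold. Adam17, which releases TNF and ligands of the EGF receptor, had 80.1, 83 and 80.4 CPM in WT P8, 35.4, 38.3 and 36.1 CPM in WT P40 and 71.8, 75.2 and 74.1 CPM in INSL3-KI P40 testis. It fell with age in WT (-1.20) and rose in INSL3-KI at P40 (1.06 (adjusted p = 0.000388)) and in INSL3-KO at P23 (1.20 (adjusted p = 3.83e-08)).

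Adam12, which is expressed in mesenchyme and cleaves IGF-binding proteins, fell from 61.3, 78.1 and 134 CPM at P8 to 4.46, 3.94 and 4.46 CPM at P40 in WT testis (-4.46 (adjusted p = 5.85e-06)). It rose in INSL3-KI at P40 (9.54, 18.9 and 16.1 CPM, log2 fold change 1.85 (adjusted p = 0.0019)) and at P23 (1.77 (adjusted p = 0.00396)), and in INSL3-KO at P23 (1.64 (adjusted p = 4.56e-05)). Adam15, a disintegrin of vessels and epithelia, rose in the same 3 comparisons, with log2 fold changes of 1.37 (adjusted p = 0.000476), 1.27 (adjusted p = 0.00364) and 1.29 (adjusted p = 8.34e-08). Adam33, a member of smooth muscle and mesenchyme, rose in INSL3-KO at P23 (1.21 (adjusted p = 0.00348)) from a low level, at 0.761, 0.892 and 0.744 CPM in WT and 1.63, 1.84 and 1.89 CPM in INSL3-KO. With age in WT testis, Adam19 fell by -2.69 (adjusted p = 5.77e-05), Adam33 by -2.54 (adjusted p = 0.00246), Adam15 by -1.15 (adjusted p = 9.21e-05) and Adam9 by -1.02 (adjusted p = 0.000151). Adam8, a protease of leukocytes, rose with age (1.62 (adjusted p = 0.00213)) and was not called in any comparison of a mutant testis with WT. The rise of Adam33 in INSL3-KO lost its call without WT replicate 1 or 3 or INSL3-KO replicate 2 or 3 (adjusted p = 0.0110 to 0.0171), and that of Adam12 in INSL3-KI at P40 without WT replicate 2 (adjusted p = 0.0104). The fall of Adam9 with age went under the fold threshold without WT P8 replicate 3 (-0.95) or WT P40 replicate 1 (-0.90). The fall of Adam33 with age lost its call without WT P40 replicate 1 (adjusted p = 0.0143) or replicate 3 (adjusted p = 0.0158), and the rise of Adam8 without WT P40 replicate 1 (adjusted p = 0.0102) or replicate 2 (adjusted p = 0.0118).

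Markers of somatic cells and of spermatogonia moved with these members. The 4 fibroblast markers summed to 158 to 324 CPM in WT P40 and 742 to 1098 CPM in INSL3-KI P40 testis, and to 211 to 231 CPM in WT P23 and 1509 to 1567 CPM in INSL3-KO P23 testis. The 5 Sertoli cell markers went from 147 to 162 CPM to 544 to 814 CPM at P40 and from 145 to 151 CPM to 738 to 741 CPM in INSL3-KO at P23, and the 5 macrophage markers from 98.8 to 125 CPM to 293 to 417 CPM and from 110.5 to 119 CPM to 494 to 510.3 CPM. The 5 spermatogonia markers went from 156 to 176 CPM in WT to 339 to 428 CPM in INSL3-KI at P40. At P23 they went from 173 to 177 CPM in WT to 539 to 567 CPM in INSL3-KO. None of these markers was without counts in these groups, and their part in the result was not tested. Scaling by library size alone moved the all-gene median, on the log2 scale, to 0.70 for INSL3-KI at P40 and 0.69 for INSL3-KO at P23.

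The neural members did not move as 1 group. Adam23, a synaptic LGI receptor without protease activity, rose in INSL3-KI testis at P40 (11.5, 9.37 and 16.5 CPM in WT and 38.4, 51.7 and 53.8 CPM in INSL3-KI, log2 fold change 1.99 (adjusted p = 0.00104)) and at P23 (1.23 (adjusted p = 0.00916)), and in INSL3-KO testis at P23 (2.67 (adjusted p = 3.75e-10)). Adam11 rose with age in WT testis (2.41 (adjusted p = 6.44e-05)) and fell in INSL3-KI at P40 (20.3, 21.7 and 22.1 CPM in WT and 4.3, 2.96 and 3.4 CPM in INSL3-KI, -2.54 (adjusted p = 0.000158)) and in INSL3-KO at P23 (-2.84 (adjusted p = 6.94e-08)). Adam22 fell in INSL3-KI at P40 (-1.14 (adjusted p = 0.00142)) and P23 (-1.46 (adjusted p = 0.00288)) and in INSL3-KO at P23 (-1.57 (adjusted p = 1.23e-05)), and scaled by library size alone its values in the same order were -0.53, -0.99 and -0.94 and it was not called. Comparisons of INSL3-KI and of INSL3-KO with WT at a given age share their WT libraries.

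**Figure D4:**
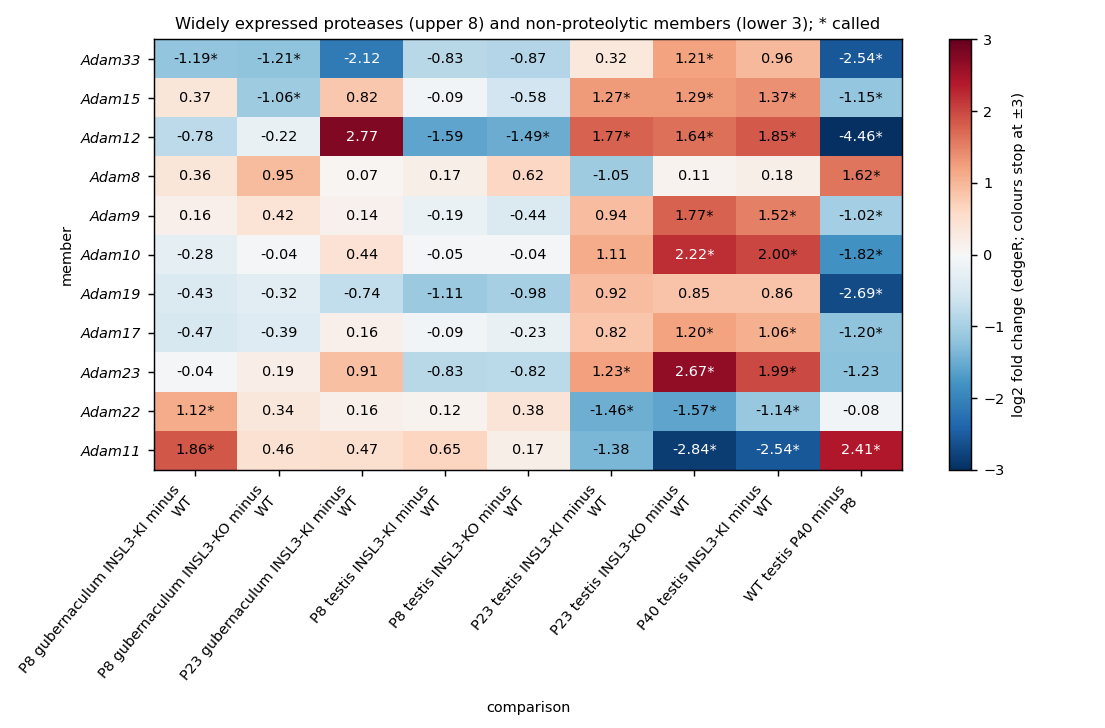
Log2 fold changes (edgeR, colour scale stopped at -3 and 3) of the 8 widely expressed proteases and the 3 non-proteolytic neural members in 9 comparisons, with an asterisk for called members. Adam10 reads 1.996 in INSL3-KI P40 testis, 2.22 in INSL3-KO P23 testis and -1.82 with age in WT testis.

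In P8 testis, before spermatids form, few members were called between genotypes. INSL3-KI and WT gave no call by edgeR's quasi-likelihood test among 17 members tested, against 3.25% of all genes lower and 3.03% higher. In that test 3 members were lower and 4 higher at an unadjusted p under 0.05, as were 7530 of 15702 genes in either direction. DESeq2 called 1 lower and 0 higher, against 7.18% and 6.45% of all genes. The member median was -0.05 and that of all genes 0.00. Adam2 had no count in WT and 74, 3150 and 36 counts in INSL3-KI (1.63, 79.7 and 0.735 CPM), with an adjusted p of 0.0547. Replicate 2, whose pachytene spermatocyte markers were high, also held 2828 counts of Adam5, 1137 of Adam32, 439 of Adam3, 299 of Adam1b, 179 of Adam30 and 164 of Adam18, and no count of Adam20, Adam24, Adam25, Adam26a, Adam26b, Adam29, Adam34 and Adam39. Without replicate 2 no member was called either.

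The libraries labelled INSL3-KO P8 testis gave 1 call lower and 1 higher among 17 members, against 8.37% and 5.44% of all genes, with a member median of -0.23 and an all-gene median of -0.02, across the tables. Adam12 had 61.3, 78.1 and 134 CPM in WT and 32.7, 31.8 and 31.6 CPM in the libraries labelled INSL3-KO (-1.49 (SE 0.27, adjusted p = 0.00281)). In INSL3-KI it had 31.9, 21.2 and 33.3 CPM, and -1.59 (adjusted p = 0.0139) was short of the threshold. The 4 fibroblast markers summed to 2657, 4286 and 8127 CPM in WT P8 testis replicates 1, 2 and 3. They summed to 1745 to 1795 CPM in the libraries labelled INSL3-KO and to 1164 to 1735 CPM in INSL3-KI. Their part in the Adam12 values was not tested. Adam2 had 0.469, 0.6 and 0.351 CPM in the libraries labelled INSL3-KO and no count in WT, at least 20.0-fold higher. Both calls were lost without any 1 of the libraries labelled INSL3-KO, with adjusted p between 0.0126 and 0.0164, and without WT replicate 1 there were 4 members called lower.

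**Figure D5:**
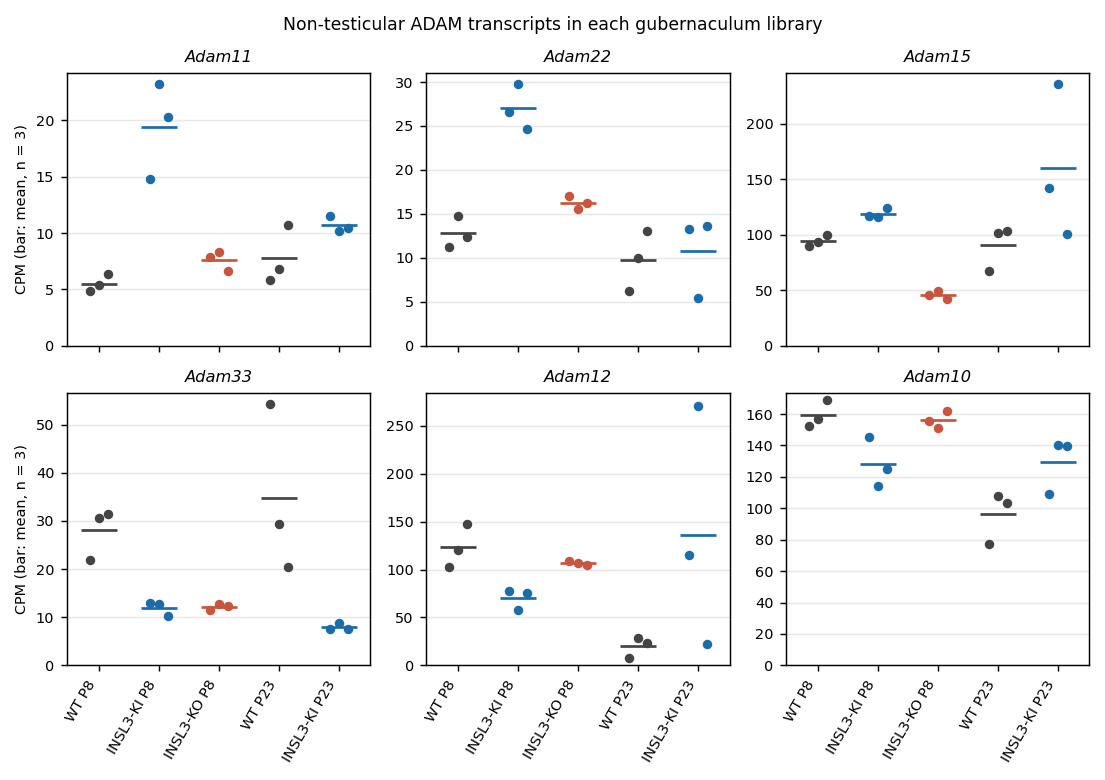
CPM of 6 members in each gubernaculum library, with groups on the x axis, 1 point per library and a bar at the mean of 3. Adam11 stood at 14.8 to 23.3 CPM in INSL3-KI P8 gubernaculum and at 4.85 to 6.32 CPM in WT, and Adam12 in INSL3-KI at P23 spread from 22.7 to 271 CPM.

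The gubernaculum at P8 expressed the widely expressed proteases and the neural members, with Adam10 (29.8 ± 1.31 FPKM) and Adam15 (27.6 ± 1.01 FPKM) highest and overlapping in WT, then Adam9 (17.9 ± 1.51 FPKM), and then Adam12, Adam19 and Adam17, which overlapped each other. Compared with WT P8 testis, 4 of 17 members tested were called higher by edgeR's quasi-likelihood test and 0 lower, against 14.1% and 14.3% of all genes. DESeq2 called 0 lower and 6 higher, against 16.0% and 16.2% of all genes. In the edgeR test 1 member was lower and 9 higher at an unadjusted p under 0.05, as were 10072 of 15624 genes in either direction. Adam33 was higher by 2.71 (adjusted p = 0.00149) and Adam19, which acts in neural crest and muscle development, by 1.77 (adjusted p = 0.00123). The member median was 0.82 and that of all genes 0.00. The other 2 were germ cell genes, Adam3, with 9.63, 4.2 and 0.948 CPM in WT gubernaculum (5.04 (adjusted p = 0.00241), lost without WT testis replicate 1 or 2 at adjusted p = 0.0103 and 0.0146), and Adam2, with 3.84, 2.34 and 0.854 CPM there and no count in WT P8 testis (adjusted p = 0.00165). Elongating spermatid markers summed to 1.77 to 55.1 CPM in WT P8 gubernaculum, with replicate 1 highest, and their part in the result was not tested. WT P8 gubernaculum also held 34663 to 36387 CPM of 6 skeletal muscle markers, against 704 to 1270.2 CPM in INSL3-KI and 6594 to 7129 CPM in INSL3-KO gubernaculum.

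In INSL3-KI gubernaculum at P8 Adam11 and Adam22 rose, and Adam33, Adam3 and Adam2 fell. These were 2 and 3 of 18 members tested, against 14.4% and 9.7% of all genes, with a member median of -0.35 and an all-gene median of 0.02, within the first table. Adam11 had 4.85, 5.37 and 6.32 CPM in WT and 14.8, 23.3 and 20.3 CPM in INSL3-KI (1.86 (SE 0.21, adjusted p = 0.00017)). Adam22 had 11.2, 14.7 and 12.4 CPM in WT and 26.5, 29.8 and 24.7 CPM in INSL3-KI (1.12 (SE 0.15, adjusted p = 0.000424)). Adam33 had 22, 30.7 and 31.4 CPM in WT and 12.9, 12.8 and 10.2 CPM in INSL3-KI (-1.19 (SE 0.18, adjusted p = 0.000798)). The genotypes did not overlap for any of these 3 genes, and each call held with every library left out. The 4 Schwann cell markers summed to 49.2 to 145 CPM in WT and 81.1 to 98 CPM in INSL3-KI, so that their ranges overlapped. In the same libraries the 4 fibroblast markers summed to 13537 to 14635 CPM in WT and 5773 to 8709 CPM in INSL3-KI, 4 adipocyte markers to 89 to 101 and 727 to 977 CPM and 5 macrophage markers to 251 to 328 and 127 to 146 CPM, none of them at 0, and their part in the result was not tested. Adam33 lost its call when scaled by library size alone, which moved the all-gene median to 0.34.

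The germ cell genes had few counts in this comparison. Adam3 had 306, 140 and 30 counts in WT and 6, 11 and 9 in INSL3-KI (log2 fold change -4.30 (adjusted p = 0.00302)), and Adam2 had 122, 78 and 27 and 0, 7 and 8 (-3.99 (adjusted p = 0.00755)). Without any 1 of the INSL3-KI libraries 1 member was called lower instead of 3. Adam2 was also lost without WT replicate 1 (adjusted p = 0.0257) or replicate 2 (adjusted p = 0.0215). The 6 elongating spermatid markers summed to 55.1, 13.1 and 1.77 CPM in WT replicates 1, 2 and 3, and to 1.62 to 2.39 CPM in INSL3-KI. Their part in the falls of Adam3 and Adam2 was not tested. Adam12 was lower in INSL3-KI by -0.78 (adjusted p = 0.00383) and Adam15 higher by 0.37 (adjusted p = 0.00726), both under the fold threshold.

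In INSL3-KO gubernaculum at P8, 6 of 20 members fell and 1 rose, against 15.2% and 15.5% of all genes, with a member median of -0.27 and an all-gene median of 0.03, across the tables. Adam33 had 11.5, 12.7 and 12.4 CPM (-1.21 (adjusted p = 0.000371)) and Adam15 45.6, 49.3 and 41.7 CPM against 89.8, 93.3 and 100.1 CPM in WT (-1.06 (adjusted p = 4.4e-05)). The other 4 that fell were sperm-surface genes. Adam3 had no count in INSL3-KO and was at least 208-fold lower, and Adam2 had 2 counts and was 149-fold (95% counting interval 40.7 to 1236) lower. Adam1b and Adam32 fell by -4.16 (adjusted p = 0.00117) and -3.20 (adjusted p = 0.00289). In these INSL3-KO libraries Prm1, Prm2, Tnp1 and Tnp2 were also at 0, and the part of germ cell transcripts in the WT libraries in this result was not tested. Adam11 (0.46 (adjusted p = 0.0495)) and Adam22 (0.34 (adjusted p = 0.0529)) did not pass. Adam15 lost its call without INSL3-KO replicate 3 (log2 fold change -0.99), Adam3 without WT replicate 2 (adjusted p = 0.0127), and Adam32 without any 1 of the INSL3-KO libraries (adjusted p = 0.0117 to 0.0181).

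Set against each other, INSL3-KI gubernaculum at P8 held more Adam15 (1.39 (SE 0.08, adjusted p = 1.64e-05)), Adam11 (1.35 (SE 0.19, adjusted p = 0.00071)) and Adam1a (2.46 (SE 0.50, adjusted p = 0.004)) than INSL3-KO gubernaculum. These were 3 of 17 members tested, and 0 were called lower by edgeR, against 11.9% and 10.5% of all genes, with a member median of -0.12 and an all-gene median of -0.01. DESeq2 called 0 members lower, where it called 12.0% of all genes lower and 12.4% higher. In the edgeR test 4 members were lower and 5 higher at an unadjusted p under 0.05, as were 10645 of 15642 genes in either direction. Adam15, with 117, 116 and 124 CPM in INSL3-KI, was thus above both other genotypes in these libraries. Adam1a lost its call without any 1 of the INSL3-KO libraries (adjusted p = 0.0139 to 0.0206). Adam33 did not pass between the mutants (-0.02 (adjusted p = 0.91)).

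At P23 no member was called in the gubernaculum. None of 17 passed edgeR's quasi-likelihood test, against 2.35% of all genes lower and 0.212% higher. In that test 2 members had an unadjusted p under 0.05, as did 5063 of 15082 genes. DESeq2 called 1 lower and 1 higher, against 9.21% and 5.52% of all genes. The member median was 0.26 and that of all genes 0.11. Adam33 had 54.2, 29.4 and 20.5 CPM in WT and 7.64, 8.88 and 7.5 CPM in INSL3-KI, without overlap (-2.12 (SE 0.39, adjusted p = 0.0252)). Adam12 had 7.9, 28.8 and 23.1 CPM in WT and 115, 271 and 22.7 CPM in INSL3-KI, with overlap (2.77 (SE 0.94, adjusted p = 0.102)). Adam11 had 5.85, 6.81 and 10.7 CPM and 11.5, 10.2 and 10.4 CPM (0.47 (adjusted p = 0.303)). Skeletal muscle markers summed to 50383 to 85919 CPM in WT and 14.2 to 935 CPM in INSL3-KI, and 4 adipocyte markers to 460.2 to 13988 CPM in INSL3-KI, and their part in these values was not tested. The test of whether the INSL3-KI effect differed between P23 and P8 gave no call among 19 members, against 0.194% of all genes lower and 0.0874% higher. It gave 5 members an unadjusted p under 0.05, and 4094 of 16016 genes. The member median was 0.42 and the all-gene median -0.02. DESeq2 called Adam11 lower and Adam12 higher in that test, against 4.60% and 2.44% of all genes, and without INSL3-KI P23 replicate 3 edgeR called 1 member higher.

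Of the epididymal members, Adam7 was abundant in 1 library and Adam28 in none. Adam28 had at most 6 counts in any library and was not tested. Adam7, which is made in the epididymal epithelium and passed to sperm, had 0, 0 and 473 counts in WT and 26, 0 and 13593 counts in INSL3-KI P23 gubernaculum (299.9 CPM in INSL3-KI replicate 3), and 0, 0 and 301 in INSL3-KI P8 testis. In P8 gubernaculum it had 0, 2 and 0 counts in WT and 11, 20 and 28 in INSL3-KO, 22.5-fold (95% counting interval 5.96 to 190.2) higher, a call that was kept only without WT replicate 2 and lost without any 1 of the 5 other libraries (adjusted p = 0.0166 to 0.0290). INSL3-KI P8 gubernaculum held 0, 42 and 10 counts of Adam7. Between the mutants Adam7 was not called (log2 fold change 0.09). The 6 epididymis markers summed to 0.537 to 0.756 CPM in WT P8 gubernaculum, with Lcn5, Lcn8, Lcn9 and Rnase9 at 0, to 619 to 1559 CPM in INSL3-KI and to 991 to 1109 CPM in INSL3-KO, both with Lcn9 at 0. In P23 gubernaculum they reached 1047 CPM in WT replicate 3 and stood at 2245, 1.97 and 6973 CPM in INSL3-KI replicates 1, 2 and 3. INSL3-KI replicate 1 thus held 26 counts of Adam7 beside 2245 CPM of these markers. The part of the markers in the Adam7 values was not tested.

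Genes that act on ADAM proteins were counted by list. Of 14 factors of sperm ADAM maturation (chaperones, proteases and partners needed for ADAM3 to reach the sperm surface), 6 of 14 tested fell in INSL3-KI P40 testis and none rose, against 22.1% and 25.6% of all genes. The serine proteases Prss55 (124, 128 and 119 CPM in WT and 0.996, 0.0752 and 0 CPM in INSL3-KI) and Prss37 (171, 175 and 175 CPM and 1.63, 0 and 0 CPM) fell furthest, then the chaperone Pdilt (-7.93 (adjusted p = 0.000388)) and Pmis2 (-4.83 (adjusted p = 1.91e-05)). The list median was -3.01 against 0.09 for all genes. In WT testis 13 of the 14 rose from P8 to P40 and Tpst2, a tyrosine sulfotransferase, fell (-1.32 (adjusted p = 6.76e-05)), where 31.9% of all genes rose and 27.8% fell. In INSL3-KO at P23, 13 fell and Tpst2 rose (1.01 (adjusted p = 5.95e-06)), and in INSL3-KI at P23, 5 fell and none rose. All-gene shares called lower at P23 were 33.4% in INSL3-KO and 11.8% in INSL3-KI, and these list counts were not repeated with the WT P40 libraries. At P8, Tex101, the testis glycoprotein that ADAM3 depends on, had 32.3, 17.3 and 16.1 CPM in WT testis, 198, 464 and 142 CPM in INSL3-KI and 212, 204 and 196 CPM in the libraries labelled INSL3-KO, and rose in both (3.67 (adjusted p = 0.0056) and 3.25 (adjusted p = 9.03e-05)). In these comparisons 3.03% and 5.44% of all genes were called higher. INSL3-KI replicate 2, the highest, is the library whose pachytene spermatocyte markers were high. Tex101 is 1 of the 14 listed genes, and calls of the others at P8 are not given here. Prss37 and Prss55 had no count in either mutant.

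Of 20 regulators of sheddases (TIMP inhibitors, iRhoms, tetraspanins, proprotein convertases and Tks adaptors), 19 were tested in each comparison. In INSL3-KI P40 testis 11 rose (25.6% of all genes), led by Rhbdf2, the iRhom that carries ADAM17 to the surface (2.55 (adjusted p = 0.000322)), Furin, which removes ADAM prodomains (2.12 (adjusted p = 0.000577)), and Pcsk5 (2.11 (adjusted p = 0.00101)), and Tspan33 fell (-1.27 (adjusted p = 0.000995)). The list median was 1.66. In INSL3-KO at P23, 14 rose and 1 fell (31.1% and 33.4% of all genes), with Timp1 at 3.62 (adjusted p = 3.82e-08), and in INSL3-KI at P23, 7 rose and none fell (8.81% and 11.8% of all genes). In WT testis 11 fell and 3 rose from P8 to P40 (27.8% and 31.9% of all genes). In P8 gubernaculum, the counts were near the shares of all genes, with 3 higher and 0 lower in INSL3-KI (14.4% and 9.7% of all genes), and 2 higher and 3 lower in INSL3-KO (15.5% and 15.2%), where Furin was lower (-2.05 (adjusted p = 2.29e-05)), while the INSL3-KI level was above that of INSL3-KO (2.32 (adjusted p = 1.03e-05)).

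The ErbB ligands, which ADAM10 and ADAM17 release, moved in both directions in P8 gubernaculum. Of 8 listed, 5 were tested in INSL3-KI, where 2 rose and 2 fell, against 14.4% and 9.7% of all genes. Tgfa had 0.378, 0.42 and 1.11 CPM in WT, 13.4, 15.1 and 13.5 CPM in INSL3-KI (4.50 (adjusted p = 3.66e-05)) and 10.4, 9.07 and 7.21 CPM in INSL3-KO (3.80 (adjusted p = 0.000227)), and the mutants did not overlap WT. Nrg1 had 4.41, 4.32 and 3.54 CPM in WT, 1.37, 1.83 and 1.58 CPM in INSL3-KI (-1.32 (adjusted p = 0.00393)) and 0.418, 0.737 and 0.458 CPM in INSL3-KO (-2.92 (adjusted p = 0.000161)), where 1 ligand rose and 2 fell of 6 tested, against 15.5% and 15.2% of all genes. In P8 testis Nrg1 and Tgfa fell in INSL3-KI (-2.01 (adjusted p = 0.00413) and -1.68 (adjusted p = 0.00351)) and in the libraries labelled INSL3-KO (-3.19 (adjusted p = 2.21e-05) and -1.74 (adjusted p = 5.2e-05)). Of all genes, 3.25% and 8.37% were called lower and 3.03% and 5.44% higher. No ligand was higher in either, which for a list of 8 is near the shares called higher.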

How the data were processed

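RNA was measured in 39 libraries, 3 per genotype, age and tissue. The authors extracted RNA with TRIzol, made mRNA libraries and read both ends on a NovaSeq. For each gene the authors deposited a raw count and an FPKM value, which scales for length and depth, each unit in 2 tables. Per the submitters' processing notes reads were mapped to GRCm38 with HISAT2, and the counter and the annotation are not given in the sources used here. Tables were joined on the Ensembl identifier, and the shared genes hold 94.2% to 97.9% of the counts of a library. The members had the same symbol in both tables, and 15 of the 33 had the same implied transcript length (within 1%).

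Raw counts of the compared groups were tested with edgeR 4.0.16 in R 4.3.3 (quasi-likelihood test, TMM, filterByExpr set to a count of 10 and a total of 15, Benjamini-Hochberg over all genes tested). A call needed an adjusted p below 0.01 and a fold change of 2 or more. The code was tested on simulated data. CPM values were TMM-scaled within a tissue. A fold against a group without counts is a lower bound at 3 counts over the group, and counting intervals are 95%. These floors and intervals cover counting error only. Alternatives were DESeq2 1.42.0, limma 3.58.1 on log2(FPKM + 1), library size alone, no filter, a replicate block, 1 fit over a tissue's groups, genes of the same implied length and each library left out. Positions are from GENCODE vM21 on GRCm38.

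Every member is counted as called, not called or not tested, and called members are named by role and fold change, all of them within a table and up to 12 across tables. Other genes are named only from 3 lists (sperm ADAM maturation factors, regulators of sheddases, ErbB ligands), up to 4 per list and comparison, and marker lists were fixed per cell type. The members, lists, tests and alternatives were chosen with earlier results of these data known.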

Additional observations from a re-analysis of the deposited data

Results flagged for a closer look

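6 members moved past the threshold in opposite directions in 2 tissues or ages under the same genotype contrast. The rule for this list required that the libraries of the compared groups did not overlap, and the difference between the tissues or ages was itself not tested. In INSL3-KI mice Adam22 had log2 fold changes against WT of -1.46 in P23 testis and -1.14 in P40 testis and of 1.12 in P8 gubernaculum. Scaled by library size alone, the 2 testis values were -0.99 and -0.53 and were not called. The P23 testis value crosses the tables, and its call was lost without any 1 WT library or INSL3-KI replicate 1 (adjusted p = 0.0132 to 0.0199). Adam11 in INSL3-KI had -2.54 in P40 testis and 1.86 in P8 gubernaculum, both within the first table.

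In INSL3-KO mice Adam33 had log2 fold changes of 1.21 in P23 testis and -1.21 in P8 gubernaculum, and Adam15 had 1.29 and -1.06. The P23 testis call of Adam33 was lost without any 1 of 4 of the 6 libraries (adjusted p = 0.0110 to 0.0171), and the P8 gubernaculum call of Adam15 without INSL3-KO replicate 3. Adam12 had -1.49 in the libraries labelled INSL3-KO P8 testis, whose Insl3 counts go against the label, and 1.64 in P23 testis. The P8 testis call of Adam12 was lost without any 1 of the libraries labelled INSL3-KO, as was that of Adam2. Adam2 had 7.43 in the libraries labelled INSL3-KO P8 testis, where WT had no count so that the value is a fit and no bound (the counts put Adam2 at least 20.0-fold higher), against -7.85 in P23 testis and -6.95 in P8 gubernaculum, where INSL3-KO held 2 counts. Apart from the P23 testis values, which lie within the second table, the INSL3-KO values cross the tables.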

How the results depend on the processing

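The sample labels do not state whether same-numbered libraries are paired. In 0 of 13 comparisons did every same-numbered pair correlate above 0.1 (-0.50 to 0.56). With 3 libraries a group this check cannot exclude a pairing of animals or litters. With the replicate block, members called in INSL3-KI P23 testis went from 12 to 5 lower and from 3 to 1 higher, and the single member called higher in INSL3-KO P8 gubernaculum and in the libraries labelled INSL3-KO P8 testis went to 0. The replicate block kept 120 of 137 member calls, DESeq2 132, 1 fit over all groups of a tissue 128, library size alone 129, no filter 136 of 137, limma on log2(FPKM + 1) 78 of 89, genes of the same implied length 21 of 24 and leaving out 1 library 687 of 822. No member call reversed.

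With DESeq2, members called lower and higher in INSL3-KI against WT were 1 and 1 instead of 0 and 0 in P23 gubernaculum, 1 lower instead of 0 in P8 testis and 20 lower instead of 12 in P23 testis. INSL3-KI against INSL3-KO at P23 had 3 lower instead of 1, INSL3-KI P40 against P23 testis 9 and 1 instead of 0 and 0, and the interaction 1 and 1 instead of 0 and 0. With 1 fit over all groups of a tissue, P8 gubernaculum had 1 lower and 1 higher in INSL3-KI and 0 higher in INSL3-KO, P23 gubernaculum 1 and 1, P8 testis 2 and 2 in INSL3-KI and 2 and 0 in the libraries labelled INSL3-KO, INSL3-KI against INSL3-KO at P23 3 lower, and INSL3-KI P40 against P23 testis 12 and 2. With genes of the same implied length alone, so with fewer genes tested, P8 gubernaculum had 3 lower in INSL3-KO and 1 higher in INSL3-KI against INSL3-KO, P23 testis 2 and 1 in INSL3-KI, and INSL3-KI against INSL3-KO at P23 0 and 11. Limma gave 0 lower in INSL3-KI P8 gubernaculum and 2 instead of 4 higher in gubernaculum against testis. Without the filter, INSL3-KO P8 gubernaculum had 0 higher, and with library size alone INSL3-KI P23 testis had 7 higher. With WT P40 in place of WT P23 libraries, an alternative chosen after seeing the data, INSL3-KI P23 testis had 3 lower and 1 higher, INSL3-KO P23 testis 22 and 6, and 31 of 44 member calls were kept. The cause of these changes was not tested, apart from the fewer genes tested.

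Leaving out 1 library gave 1 to 4 lower in INSL3-KI P8 gubernaculum, 4 to 8 lower and 0 to 1 higher in INSL3-KO P8 gubernaculum, 2 to 3 higher in INSL3-KI against INSL3-KO gubernaculum, 0 to 4 lower and 0 to 1 higher in the libraries labelled INSL3-KO P8 testis, 1 to 17 lower and 0 to 4 higher in INSL3-KI P23 testis, 22 lower and 6 to 7 higher in INSL3-KO P23 testis, 0 to 4 lower and 13 to 20 higher in INSL3-KI against INSL3-KO P23 testis, 14 to 22 lower and 5 to 7 higher in INSL3-KI P40 testis, 5 to 8 lower and 21 to 22 higher with age in WT testis, 3 to 5 higher in gubernaculum against testis and 0 to 1 higher in the interaction. The libraries behind the larger moves are named beside the results. Shares of all genes called were counted for DESeq2, for library size alone and with WT P40 in place of WT P23 libraries, and not for the other alternatives. Scaled by library size alone, the median of all genes moved to 0.70 at P40, 0.55 and 0.69 in INSL3-KI and INSL3-KO P23 testis and -0.70 with age in WT testis (log2), and Adam22 lost its calls in P23 and P40 testis and Adam33 in INSL3-KI P8 gubernaculum. The shares of all genes called lower and higher became 14.7% and 39.5% in place of 22.1% and 25.6% at P40, 27.1% and 43.0% in place of 33.4% and 31.1% in INSL3-KO P23 testis, 8.73% and 21.7% in place of 11.8% and 8.81% in INSL3-KI P23 testis, 40.8% and 24.9% in place of 27.8% and 31.9% with age in WT testis, and 23.2% and 9.52% in place of 14.3% and 14.1% in gubernaculum against testis. Depth limits the members near 0 counts.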
